A study of Homo sapiens with 18 samples.

Results

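The genes described here are the core of the NOTCH pathway in 6 ovarian cancer cell lines: the receptors NOTCH1, NOTCH2 and NOTCH3, the ligands JAG1, JAG2 and DLL1, and the transcriptional repressors HES1, HES4, HEY1 and HEY2. Open chromatin was read out by ATAC-seq, in which a transposase cuts and tags DNA that is free of packing, so that more reads from a stretch of DNA mean a more open stretch. The members were the windows of the hg19 accessibility table that overlapped the annotated span of 1 of these 10 genes, extended by 10 kb on each side. This rule found 63 of the 89428 windows. Each window is 1001 bp long, starts 900 bp after the one before it and holds a value in FPKM, the fragments counted in it scaled to its length and to the reads of the library. Windows were named by the distance of their centre from the point where the canonical transcript of the gene begins, positive in the direction of transcription. Of the 63 windows, 15 were promoter windows (centre from 1000 bp before to 100 bp after a protein-coding start of the member), 46 were distal, and 2 lay at the promoter of another gene only, SEC16A beside NOTCH1 and FAM120B beside DLL1. HES1 had the most windows, 12, followed by JAG2 with 11, NOTCH1 with 9, HEY1 with 6, NOTCH3, JAG1, HES4 and HEY2 with 5 each, NOTCH2 with 3 and DLL1 with 2. The window at the canonical start is called the start window below. It was present for 9 of the 10 genes, and that of DLL1 was not analysed here. The centres of the NOTCH1 and HES1 start windows lie 0.30 kb and 0.26 kb after the start, so the centre rule put both among the distal windows.

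The 18 libraries came from 3 pairs of lines, with 3 libraries for each line, and all are labelled human genomic DNA after Tn5 tagging. A2780 is labelled an endometrial/ovarian cancer line and sensitive to platinum, and CP70 is its resistant derivative, selected in culture. PEA1 (sensitive) and PEA2 (resistant) were grown from 1 patient with high-grade serous ovarian cancer, and PEO1 (sensitive) and PEO4 (resistant) from another, before and after resistance appeared in the clinic. The lines grew in the same medium with serum, and the labels name no drug given to the cultures before ATAC-seq. Each platinum state of a pair is 1 line, so a difference within a pair is a difference between 2 lines, and drug resistance cannot be told apart from anything else in which the 2 lines differ. The labels do not say whether the 3 libraries of a line came from separate cultures, so the p-values within a pair measure the spread between libraries, which may be technical.

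NOTCH receptors are single-pass membrane proteins that bind JAG and DLL ligands on a neighboring cell. Binding exposes the receptor to ADAM10 and then to gamma-secretase, which frees the intracellular domain. That domain enters the nucleus, joins the DNA-binding protein RBPJ and a MAML coactivator, and switches on genes of the HES and HEY families, whose basic helix-loop-helix products repress transcription. In the ovary the pathway is known for signaling between the oocyte, granulosa cells and surface epithelium, and NOTCH3 and JAG1 have been studied in serous carcinoma.

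Library totals ran from 8963079 reads in PEO1 to 60435027 in A2780. The share of reads that fell in the table's windows differed between lines, from 9.26% ± 0.832 in A2780 and 13.1% ± 2.16 in CP70, through 15.3% ± 2.12 in PEA1 and 18.9% ± 1.82 in PEA2, to 39.9% ± 0.949 in PEO1 and 34.4% ± 1.51 in PEO4 (mean ± SD, n = 3). FPKM is scaled to all reads, so a library with more of its reads in open windows has higher values in most of them. The median over the 12714 start windows of the table was 7.19 FPKM in PEO4, 7.29 in PEO1, 2.61 in PEA2, 3.18 in PEA1, 3.14 in CP70 and 2.03 in A2780. Levels between pairs are therefore also given below as the percentile of a window among these 12714 within its library. The markers of ovarian epithelium were also higher in the PEO lines: 7 of the 8 listed markers had a start window in the table, and their summed level was 68.3 FPKM in PEO4, 60.3 in PEO1, 14.98 in PEA2, 12.8 in PEA1, 8.80 in CP70 and 5.30 in A2780. MUC16 and the start windows of the leukocyte, endothelial and fibroblast markers were not analysed here. The part of these differences in the results for the NOTCH genes was not tested.

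Across the 6 lines, PEO1 or PEO4 had the highest mean in 15 of the 15 promoter windows and in 32 of the 46 distal windows of the members. Over the whole table the same held for 87.5% of promoter windows and 70.6% of distal windows, so by this count the NOTCH genes lay near the table. A2780 had the lowest mean in 10 of the 15 promoter windows. Line by line the distal windows divided otherwise than those of the table, a difference that was not tested. CP70 was highest in 11 of 46, or 23.9%, against 4.32% of all distal windows, PEA2 in 2.17% against 19.0%, PEO1 in 34.8% against 46.9% and PEO4 in 34.8% against 23.7%. The 11 windows highest in CP70 belong to 2 genes, 7 to JAG2 and 4 to NOTCH1, and several are adjacent to one another, so they do not describe the other 8 genes. The JAG2 windows 24.11 kb after and 1.99, 2.89 and 3.79 kb before the start had libraries above 2 FPKM in CP70 alone. So did the NOTCH1 windows 29.10 and 60.60 kb after the start. A window needed 2 libraries above 2 FPKM to enter the table, so the count for CP70 is in part fixed by that rule. By the F test across the 6 lines, 29 of the 58 windows tested (50%) passed with an adjusted p under 0.001 and a range of line means above 2 on the log2 scale, beside 71.4% of all windows. At an adjusted p under 0.05, all 58 differed between lines. Among the 9 start windows, 7 passed the stricter call, and the exceptions were NOTCH1, with a range of 1.46, and NOTCH3, with a range of 1.80.

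**Figure D1:**
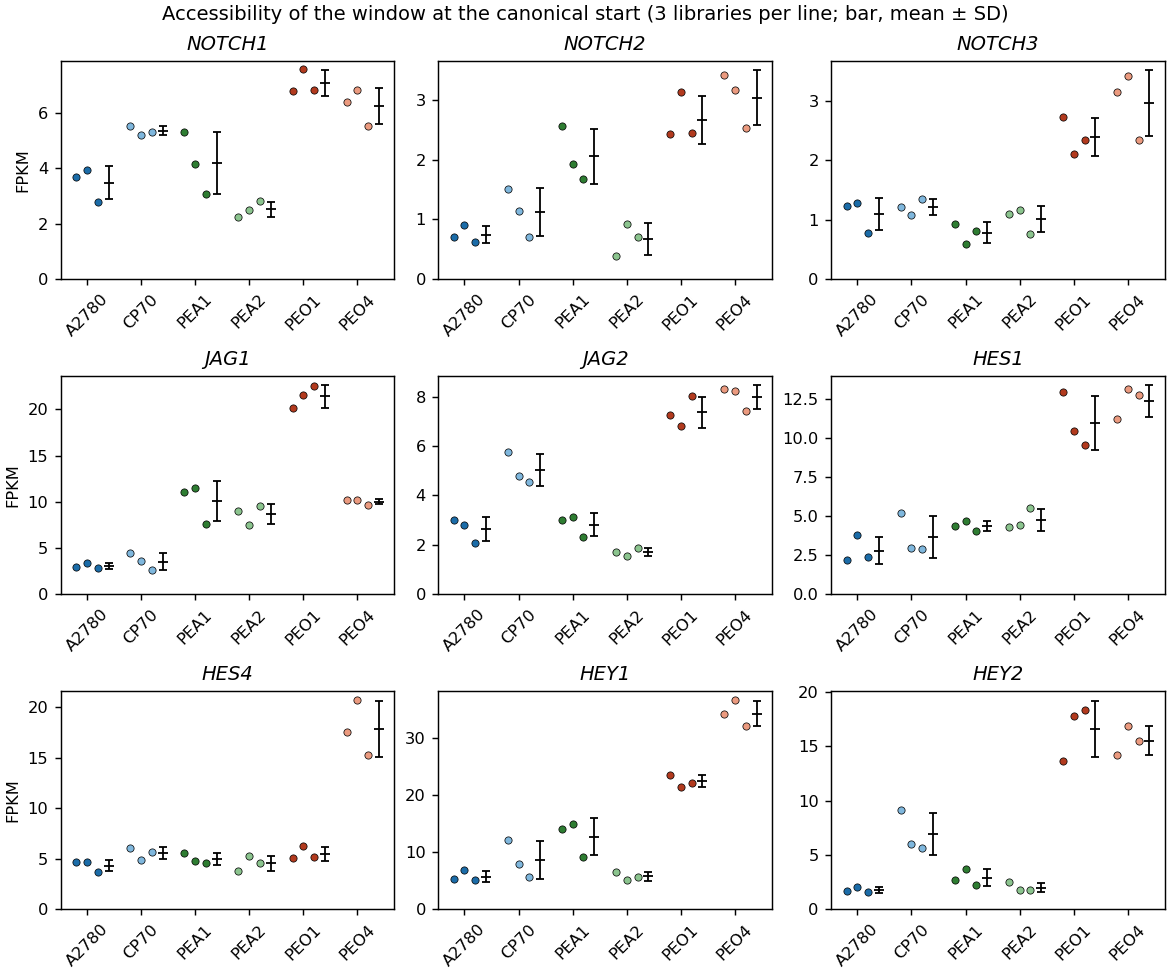
Each panel shows 1 gene, with FPKM of the start window on the y axis and the 6 lines on the x axis; points are the 3 libraries of a line, and the bar beside them is the mean ± SD. PEO1 and PEO4 lie highest in most panels, and HEY2 is higher in CP70 (6.94) than in A2780 (1.76). HES4 has its highest FPKM in PEO4 (17.8). By rank within the library, HES4 stood at percentile 87.9 in PEO4, 90.5 in A2780 and 37.4 in PEO1.

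Ranked within each library, the start windows of the 9 genes separated into open and less open promoters. HEY1 was among the most accessible starts of every line, between percentiles 88.7 in PEA2 and 99.7 in PEA1. JAG1 reached percentile 98.9 in PEA1, 97.1 in PEA2 and 92.1 in PEO1, but 75.1 in A2780, 65.5 in PEO4 and 56.7 in CP70. HES1 stayed between 58.4 in CP70 and 81.8 in PEA2. NOTCH2 and NOTCH3 were among the less accessible starts throughout, between 3.3 and 25.1 for NOTCH2 and between 4.6 and 18.7 for NOTCH3. NOTCH1 stood at 81.9 in A2780 and 82.2 in CP70 but at 48.5 in PEO1 and 43.8 in PEO4, although its FPKM was highest in PEO1. JAG2 was highest in CP70, at 79.6, and lowest in PEA2, at 25.2. HES4 stood at 37.4 in PEO1 and between 79.4 and 90.5 in the other lines. HEY2 was at 40.5 in A2780 and 91.7 in CP70, at 84.6 in PEO1 and 83.6 in PEO4, and at 43.1 in PEA1 and 32.3 in PEA2.

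Averaged over the distal windows of a gene, the start windows of NOTCH1 and HES1 left out, the lines took other orders. NOTCH1 was highest in PEA1 (1.80 ± 0.0744 FPKM, SD, n = 3, over 6 windows) and lowest in PEO1 (0.802 ± 0.137). JAG2 was highest in CP70 (2.44 ± 0.130, 10 windows) and lowest in PEA1 (1.21 ± 0.0343), while PEO1 and PEO4 had 2.18 ± 0.175 and 2.25 ± 0.134. JAG1 was at 7.10 ± 0.135 in PEO1 and 1.43 ± 0.172 in PEO4 (3 windows), HES4 at 1.43 ± 0.568 and 5.06 ± 0.361 (3 windows), and HES1 at 9.55 ± 0.440 and 7.54 ± 0.544 (10 windows). NOTCH3 was at 5.58 ± 0.716 in PEO1 and 7.67 ± 0.817 in PEO4, and between 0.588 and 1.19 in the other lines (4 windows). NOTCH2 (2 windows) ranged from 0.272 in A2780 to 2.24 in PEO4, HEY1 (4 windows) from 1.05 in PEA2 to 2.98 in PEO4, and HEY2 (1 window) from 0.368 in A2780 to 2.86 in PEO1. These means mix windows of different heights, some of which entered the table through 1 line alone, and were not tested.

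**Figure D2:**
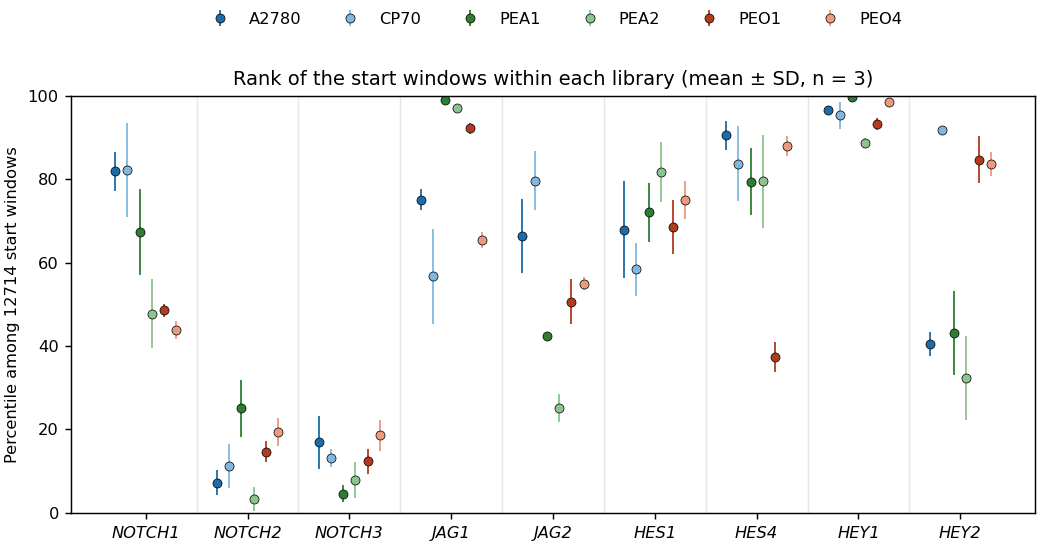
The y axis is the percentile of the start window among the 12714 start windows of the same library, and the x axis lists the 9 genes; points are line means and bars the SD of 3 libraries. HEY1 sits at 88.7 or above in all 6 lines, NOTCH2 and NOTCH3 at 25.1 or below, and HES4 in PEO1 (37.4) lies apart from HES4 in the other 5 lines.

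Within the pairs, the share of changed NOTCH windows was near that of the table in CP70, fewer of them than of all windows rose in PEA2, and fewer fell in PEO4. These differences in share were not tested. A window was tested where its mean over the 6 libraries was above 1 FPKM, and called where the log2 fold change of the resistant over the sensitive line, on log2(FPKM + 0.1), was above 2 in size with a limma adjusted p under 0.001. Changes of any size at an adjusted p under 0.05 were counted by direction. In CP70 against A2780, 0 of 49 windows tested were called, beside 0.797% of all windows (27 had an unadjusted p under 0.05, and limma with voom weights on the reads recovered from the FPKM values called 0 too). There 25 (51%) were higher in CP70 and 0 lower, beside 47.5% and 2.29% of all windows. In PEA2 against PEA1, 1 of 50 was called, beside 12.7%, and 2 (4%) were higher and 13 (26%) lower in PEA2, beside 43% and 21.4%. In PEO4 against PEO1, 4 of 56 were called, beside 8.49%, and 14 (25%) were higher and 15 (26.8%) lower in PEO4, beside 21.9% and 45.8%. The median log2 fold change of the members was 0.62, -0.04 and -0.01 in the 3 pairs, and that of all windows was 0.59, 0.31 and -0.30. Promoter and distal windows were counted apart as well. Of the 63 member windows, 15 were promoter windows of the members and 2 of other genes only, beside 16997 of 89428 in the table. Over the whole table promoter windows rose less often in PEA2 and fell less often in PEO4 than distal ones. The part of this in the counts above was not tested. In CP70, 6 of 13 promoter windows were higher and 0 lower, beside 44.9% and 1.39% of all promoter windows, and 17 of 34 distal windows were higher and 0 lower, beside 49% and 2.85% of all distal windows. The windows called at the stricter threshold were all distal, namely 1 of 36 in PEA2, beside 16% of all distal windows, and 4 of 39 in PEO4, beside 10.4%, with none of 34 in CP70, beside 1.15%. In PEA2, 5 of 12 promoter windows were lower and 0 higher, beside 33.1% and 20.2% of all promoter windows. Of 36 distal windows there, 8 were lower and 2 higher, beside 17.7% and 50.1%. In PEO4, 4 of 15 promoter windows rose and 4 fell, beside 24.5% and 32.4%. Of 39 distal windows there, 10 rose and 10 fell, beside 21.2% and 49.4%. Among those that rose, NOTCH3 +1.41 kb and HEY1 +0.80 kb had libraries above 2 FPKM in PEO4 alone. Among those that fell, HEY1 +7.10 kb and the HEY2 windows at +0.82 kb and 2.78 kb before the start had them in PEO1 alone. The counts of CP70 and PEA2 hold such windows of JAG2 and NOTCH1. The counts by direction are therefore in part fixed by how windows entered the table. The direction of small changes depends on the shift of the whole table. With each library centred on its median, the counts of higher and lower windows became 29 and 8 in PEO4, 0 and 26 in PEA2, and 5 and 3 in CP70.

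**Figure D3:**
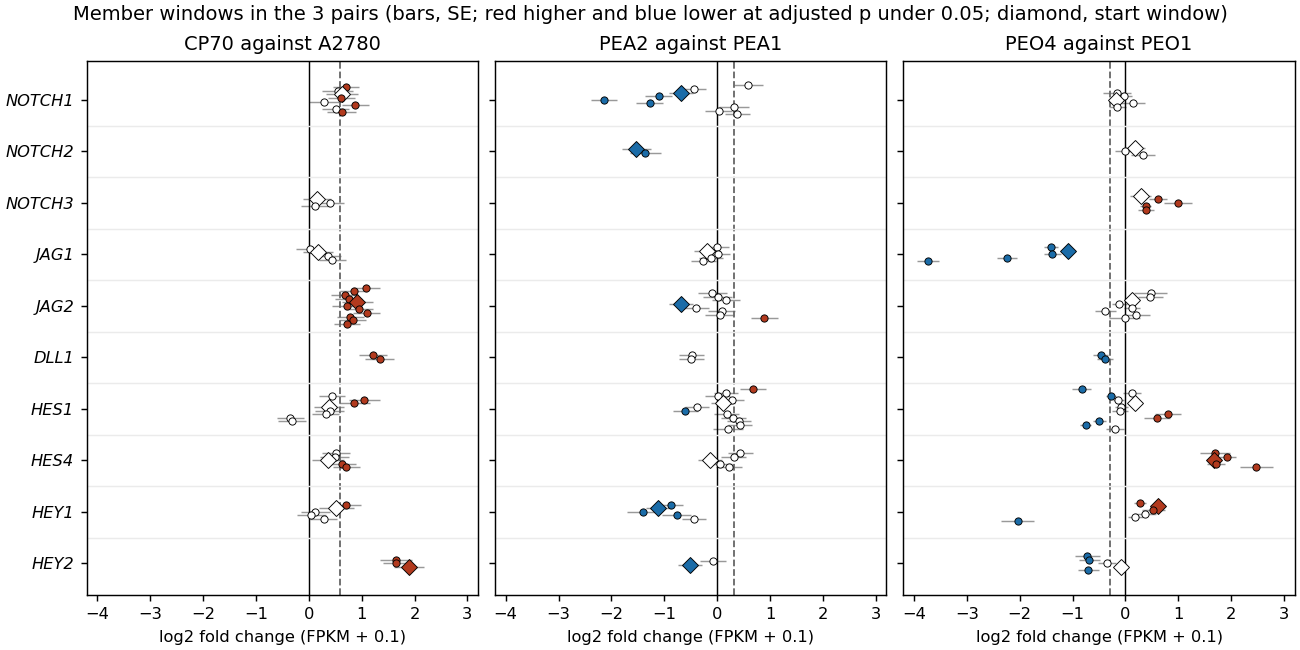
Each panel is 1 pair, with the log2 fold change (FPKM + 0.1, resistant over sensitive) on the x axis and the 10 genes on the y axis; bars are SE, diamonds are start windows, red and blue mark higher and lower windows at an adjusted p under 0.05, and the dashed line is the median of all windows (0.59, 0.31 and -0.30). The 5 JAG1 windows lie left of the dashed line and the 5 HES4 windows right of it in PEO4, and the 3 HEY2 windows lie farthest right in CP70.

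NOTCH1, the receptor with the broadest known role, had its start window at chr9:139439700-139440700. It read 3.68, 3.94 and 2.79 FPKM in A2780, 5.53, 5.21 and 5.32 in CP70, 5.32, 4.14 and 3.07 in PEA1, 2.25, 2.49 and 2.80 in PEA2, 6.78, 7.59 and 6.80 in PEO1, and 6.39, 6.81 and 5.53 in PEO4. Neighbors in the order of the 6 line means overlapped at every step. PEA2 lay below PEA1 in every library and fell by 0.68 on the log2 scale (SE 0.23, adjusted p = 0.00525 by limma), and without PEA1 replicate 1 the value was -0.49 (adjusted p = 0.117). In CP70 the start window had a log2 fold change of 0.62 and in PEO4 one of -0.18, and neither passed (adjusted p = 0.0666 and 0.246). The only receptor window called in a pair was intronic, 25.50 kb after the NOTCH1 start (chr9:139414500-139415500). It read 4.10, 3.68 and 2.59 FPKM in PEA1 and 0.934, 0.578 and 0.621 in PEA2, where the counts behind the values were 17, 10 and 14 reads. The log2 fold change was -2.13. PEA1 was the only line with a library above the 2 FPKM that a window needed in 2 libraries to enter the table, so the window is there because PEA1 is high, and its fall is given as a description. The same holds for the neighbor 26.40 kb after the start, with a log2 fold change of -1.28. At 25.50 kb the mean was 3.46 ± 0.780 FPKM in PEA1, 0.293 in PEO4, 0.311 ± 0.213 in PEO1, 0.711 ± 0.194 in PEA2, 0.973 in CP70 and 0.888 in A2780, with 2 to 6 reads in each PEO library. The 5 Mb bin around NOTCH1 had a median change of -0.43 in PEA2 (224 windows), and with that median removed the fall was 1.70, which is under the size needed for a call.

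NOTCH2 shares its first exons with the near-identical NOTCH2NL copies, and the authors kept unique alignments only. Its values are given as uncertain, and how many of its reads this concerns was not tested. Its start window (chr1:120611700-120612700) read 0.697, 0.901 and 0.628 FPKM in A2780, 1.52, 1.14 and 0.712 in CP70, 2.56, 1.93 and 1.68 in PEA1, 0.385, 0.925 and 0.710 in PEA2, 2.43, 3.14 and 2.45 in PEO1, and 3.43, 3.17 and 2.54 in PEO4. PEA2 lay below PEA1 with no overlap, with a fall of 1.53 on the log2 scale (SE 0.27, adjusted p = 4.87e-08 by limma). The window 0.98 kb after the start fell with it, by 1.36 (adjusted p = 1.63e-05). The 5 Mb bin around NOTCH2 had a median of -0.75 in PEA2 (24 windows), and the start window changed by -0.78 once that was removed. In CP70 against A2780 no NOTCH2 window was deep enough to be tested, and in PEO4 none of the 3 tested passed, with 0.18 at the start (adjusted p = 0.403).

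NOTCH3 had a start of low accessibility and, in the PEO lines, an open intron. Its start window (chr19:15311700-15312700) read 1.22, 1.28 and 0.777 FPKM in A2780, 1.21, 1.08 and 1.34 in CP70, 0.929, 0.592 and 0.815 in PEA1, 1.10, 1.16 and 0.754 in PEA2, 2.73, 2.09 and 2.34 in PEO1, and 3.14, 3.41 and 2.34 in PEO4. In FPKM the 2 PEO lines were separate from the other 4, which overlapped one another in order. By rank within the library they were not apart, at percentile 18.7 in PEO4 and 12.4 in PEO1 beside 17.0 in A2780 and 13.2 in CP70. The window 5.01 kb after the start (chr19:15306300-15307300), in an intron, was the most accessible NOTCH3 window. It read 14.97, 13.00 and 12.04 FPKM in PEO1 and 17.0, 18.9 and 16.1 in PEO4, while its means were 1.19 in PEA2, 0.624 in PEA1, 0.973 in CP70 and 0.911 in A2780. Relative to the start window, on the log2 scale, it stood at 2.43 in PEO1 and 2.53 in PEO4 and between -0.33 and 0.18 in the other 4 lines. This ratio does not depend on the scaling of a library, and it was computed after the values were seen. Between PEO4 and PEO1 the intronic window rose by 0.38 (SE 0.11, limma adjusted p = 0.00227), but the bin around NOTCH3 had a median of 0.42 (283 windows) and the change was -0.03 without it. The 300 bases of the window nearest to its end, read along the gene's strand (chr19:15306300-15306599, minus strand, GRCh37), are shown because they hold a match to the AP-1 motif TGANTCA, in capitals:
NOTCH3 intron: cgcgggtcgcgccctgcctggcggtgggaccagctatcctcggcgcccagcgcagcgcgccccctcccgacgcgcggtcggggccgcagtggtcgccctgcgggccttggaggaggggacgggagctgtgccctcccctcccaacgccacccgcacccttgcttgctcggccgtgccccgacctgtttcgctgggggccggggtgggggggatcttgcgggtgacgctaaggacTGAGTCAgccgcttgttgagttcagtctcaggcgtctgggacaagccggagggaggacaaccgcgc
No NOTCH3 window was deep enough to be tested in the PEA pair, and in CP70 none of the 3 tested passed, with 0.16 at the start (adjusted p = 0.609).

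Among the ligands, JAG1 fell along its whole measured span in PEO4. The start window (chr20:10654200-10655200) read 2.89, 3.40 and 2.79 FPKM in A2780, 4.39, 3.59 and 2.55 in CP70, 11.1, 11.5 and 7.58 in PEA1, 8.96, 7.46 and 9.54 in PEA2, 20.1, 21.6 and 22.5 in PEO1, and 10.2, 10.2 and 9.66 in PEO4. In FPKM, PEO1 was separate from PEA1 and PEO4, which overlapped, and the A2780 pair was lowest. By rank within the library, PEA1 (percentile 98.9) and PEA2 (97.1) stood above PEO1 (92.1). In PEO4 the start window fell by 1.09 (SE 0.10, limma adjusted p = 1.88e-11), and all 5 JAG1 windows were lower. The fall was larger farther into the gene: 1.39 at 0.85 kb after the start, 2.24 (SE 0.19) at 1.75 kb and 3.73 (SE 0.21) at 2.65 kb, both intronic and both called (adjusted p = 6.55e-13 and 2.12e-17). At 2.65 kb (chr20:10651500-10652500) PEO1 read 7.69, 8.20 and 8.25 FPKM and PEO4 0.581, 0.384 and 0.598, from 10, 8 and 12 reads. The 3 PEO4 values lay below all those of A2780 (0.663, 0.766 and 0.810), CP70 (0.758, 0.778 and 0.670), PEA1 (5.25, 5.20 and 3.50) and PEA2 (4.56, 3.64 and 3.33). At 1.75 kb (chr20:10652400-10653400) PEO1 read 6.88, 6.89 and 7.24 FPKM and PEO4 0.988, 1.58 and 1.74. The 300 bases around the AP-1 match in the window at 2.65 kb (chr20:10652174-10652473, minus strand, GRCh37) are shown because the largest change of any NOTCH window was here:
JAG1 intron: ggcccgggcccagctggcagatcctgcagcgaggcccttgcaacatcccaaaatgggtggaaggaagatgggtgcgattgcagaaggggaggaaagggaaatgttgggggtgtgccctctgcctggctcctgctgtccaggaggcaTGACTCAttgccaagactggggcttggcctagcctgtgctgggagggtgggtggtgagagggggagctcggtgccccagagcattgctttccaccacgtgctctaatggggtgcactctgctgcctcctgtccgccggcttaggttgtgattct

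The region around JAG1 was also lower in PEO4: its 5 Mb bin had a median of -1.53 over 112 windows. With that median removed the start window no longer fell but changed by 0.44 (adjusted p = 0.000115), while the windows at 1.75 kb and 2.65 kb still fell, by 0.71 and 2.20. Relative to the start window, the window at 2.65 kb stood at -1.40 ± 0.03 on the log2 scale in PEO1 and -4.04 ± 0.32 in PEO4 (SD, n = 3). The difference was -2.64, and an exact two-sided permutation test gave p = 0.1, the smallest it can give for 3 libraries against 3. The ratio was chosen after the values were seen. It was -1.10 in PEA1 and -1.15 in PEA2. In the PEA pair none of the 5 JAG1 windows passed, although the bin median was 1.14 over 127 windows, and in CP70 none of 4 passed.

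JAG2 was higher in CP70 than in A2780 in all 11 of its windows, by 0.68 to 1.09 on the log2 scale. Its start window (chr14:105634800-105635800) read 3.02, 2.79 and 2.08 FPKM in A2780, 5.76, 4.79 and 4.56 in CP70, 3.01, 3.15 and 2.30 in PEA1, 1.70, 1.56 and 1.86 in PEA2, 7.28, 6.81 and 8.02 in PEO1, and 8.31, 8.25 and 7.42 in PEO4. Its rise in CP70 was 0.92 (SE 0.29, limma adjusted p = 0.00636), and 0.77 (adjusted p = 0.0943) without A2780 replicate 3. The window 0.71 kb after the start likewise no longer passed without A2780 replicate 1 (adjusted p = 0.0819) or 3 (0.175). After median centring the 11 values lay between 0.10 and 0.51 and none passed. The windows 24.11 kb after and 1.99, 2.89 and 3.79 kb before the start had libraries above 2 FPKM in CP70 alone. They entered the table through the line in which they were higher, so their rises are given as a description. In PEA2 the start window fell by 0.68 (adjusted p = 0.00667) and the window 6.11 kb after it rose by 0.89 (adjusted p = 0.00097), and 6 other windows did not pass. In PEO4 none of 8 passed, with 0.12 at the start (adjusted p = 0.422).

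DLL1, a Delta-type ligand, was represented by 2 windows, 15.13 and 16.03 kb before its canonical start. The first is at the promoter of FAM120B, and neither holds the canonical DLL1 start. At 16.03 kb (chr6:170615700-170616700) the means were 4.51 FPKM in PEO4, 6.29 in PEO1, 1.89 in PEA2, 2.67 in PEA1, 4.25 in CP70 and 1.71 in A2780. It rose by 1.21 in CP70 (SE 0.27, limma adjusted p = 0.000125) and fell by 0.47 in PEO4 (adjusted p = 0.00451), and the window at 15.13 kb did the same, by 1.34 and 0.39. Both rises in CP70 still passed after median centring, at 0.63 and 0.77. The bin around DLL1 had a median of 1.26 in CP70, over 14 windows, too few to be removed, and of -0.42 in PEO4.

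The promoters of the HES and HEY genes hold the letters of the RBPJ core, the protein through which NOTCH acts on DNA. The core of the RBPJ motif, TGGGAA on either strand, was searched in the 300 bases before each canonical start. It occurred in HES1 (2 matches), HES4 (1), HEY1 (2) and HEY2 (1), and in none of the 6 receptors and ligands. Over all protein-coding genes 4608 of 19504 such stretches, or 23.63%, hold it. The contrast with the receptors and ligands is limited to these 300 bases. In the wider promoter windows of the members, 10 of 15 (66.67%) held the core, beside 61.75% of all windows. Among these were promoter windows of NOTCH1, NOTCH2 and JAG1. In HES1 the matches begin 84 and 70 bases before the start, 14 bases apart, and HES1 and HES4 share the 12-base run tgTGGGAAagaa. The E-box CACGTG and the AP-1 motif TGANTCA were in none of the 10 stretches, beside 8.885% and 5.753% of all genes. A match describes letters only and not a bound site. The HES4 stretch shown overlaps 1 annotated exon, and the annotated span of HES4 begins before its canonical start. The stretches below show the matches in capitals, for HES1 at chr3:193853637-193853936 (plus strand), for HEY2 at chr6:126070478-126070777 (plus strand, with the match as TTCCCA) and for HES4 the 30 bases around its match at chr1:935536-935565 (minus strand), all GRCh37:
HES1 promoter: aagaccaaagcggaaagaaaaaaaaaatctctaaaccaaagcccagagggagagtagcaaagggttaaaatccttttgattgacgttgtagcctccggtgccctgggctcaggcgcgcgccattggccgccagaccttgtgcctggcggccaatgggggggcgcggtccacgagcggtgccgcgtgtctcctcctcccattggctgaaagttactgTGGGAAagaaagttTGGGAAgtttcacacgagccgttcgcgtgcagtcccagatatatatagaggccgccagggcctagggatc
HEY2 promoter: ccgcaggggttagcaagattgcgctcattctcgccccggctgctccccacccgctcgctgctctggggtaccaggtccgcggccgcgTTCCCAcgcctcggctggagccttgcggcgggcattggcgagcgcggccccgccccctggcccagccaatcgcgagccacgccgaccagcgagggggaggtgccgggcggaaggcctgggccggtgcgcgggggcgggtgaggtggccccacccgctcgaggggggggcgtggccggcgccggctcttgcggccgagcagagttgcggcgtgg
HES4 promoter: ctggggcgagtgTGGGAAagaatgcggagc

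HES1, the best known target of NOTCH, had the highest distal windows among the members. Its start window (chr3:193853700-193854700) read 2.18, 3.76 and 2.40 FPKM in A2780, 5.23, 2.93 and 2.89 in CP70, 4.36, 4.70 and 4.08 in PEA1, 4.29, 4.45 and 5.55 in PEA2, 12.9, 10.5 and 9.59 in PEO1, and 11.2, 13.2 and 12.8 in PEO4. In FPKM the PEO lines were separate from the other 4. By rank within the library, PEA2 stood at percentile 81.8, PEO4 at 74.9, PEA1 at 72.0, PEO1 at 68.5, A2780 at 67.8 and CP70 at 58.4. No pair differed past the test, with log2 fold changes of 0.38, 0.11 and 0.18 (limma adjusted p = 0.23, 0.683 and 0.185). The window 1.54 kb before the start (chr3:193851900-193852900) was the most accessible, at 7.15 ± 0.155 FPKM in PEA2, 7.21 ± 1.47 in PEA1, 6.24 ± 1.71 in CP70 and 2.93 ± 0.629 in A2780. It read 26.7, 30.2 and 25.5 in PEO1 and 22.5, 25.1 and 20.4 in PEO4. It rose by 1.05 in CP70 (SE 0.30, limma adjusted p = 0.00252, and 0.0698 without A2780 replicate 3) and fell by 0.28 in PEO4 (adjusted p = 0.0118, and 0.107 without PEO1 replicate 2 or 0.0528 without PEO4 replicate 3). A second maximum lay downstream of the gene, at 5.66 kb (chr3:193859100-193860100, named after its values were seen). There PEO1 read 24.9, 26.9 and 28.3 FPKM and PEO4 16.2, 17.6 and 13.8, and the other lines had means from 2.38 (CP70) to 7.42 (PEA2). It fell by 0.75 in PEO4 (SE 0.10, adjusted p = 4.44e-08). In all, 4 HES1 windows were lower and 2 higher in PEO4, and the bin around HES1 had a median of -0.93 over 269 windows. With that removed the change at 1.54 kb was 0.65 and at 5.66 kb 0.18. In PEA2 the windows 5.14 kb before and 2.06 kb after the start changed by 0.69 and -0.60 (adjusted p = 0.00897 and 0.0158), beside a bin median of 1.11 over 236 windows. The downstream maximum holds an AP-1 match, shown in capitals with its surroundings (chr3:193859744-193860043, plus strand, GRCh37):
HES1 downstream: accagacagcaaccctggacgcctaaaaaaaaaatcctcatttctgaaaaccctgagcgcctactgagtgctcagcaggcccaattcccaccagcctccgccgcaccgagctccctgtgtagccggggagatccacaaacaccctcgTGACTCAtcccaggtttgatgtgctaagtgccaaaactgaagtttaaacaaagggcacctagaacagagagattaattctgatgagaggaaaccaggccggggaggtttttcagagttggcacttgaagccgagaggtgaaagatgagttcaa

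**Figure D4:**
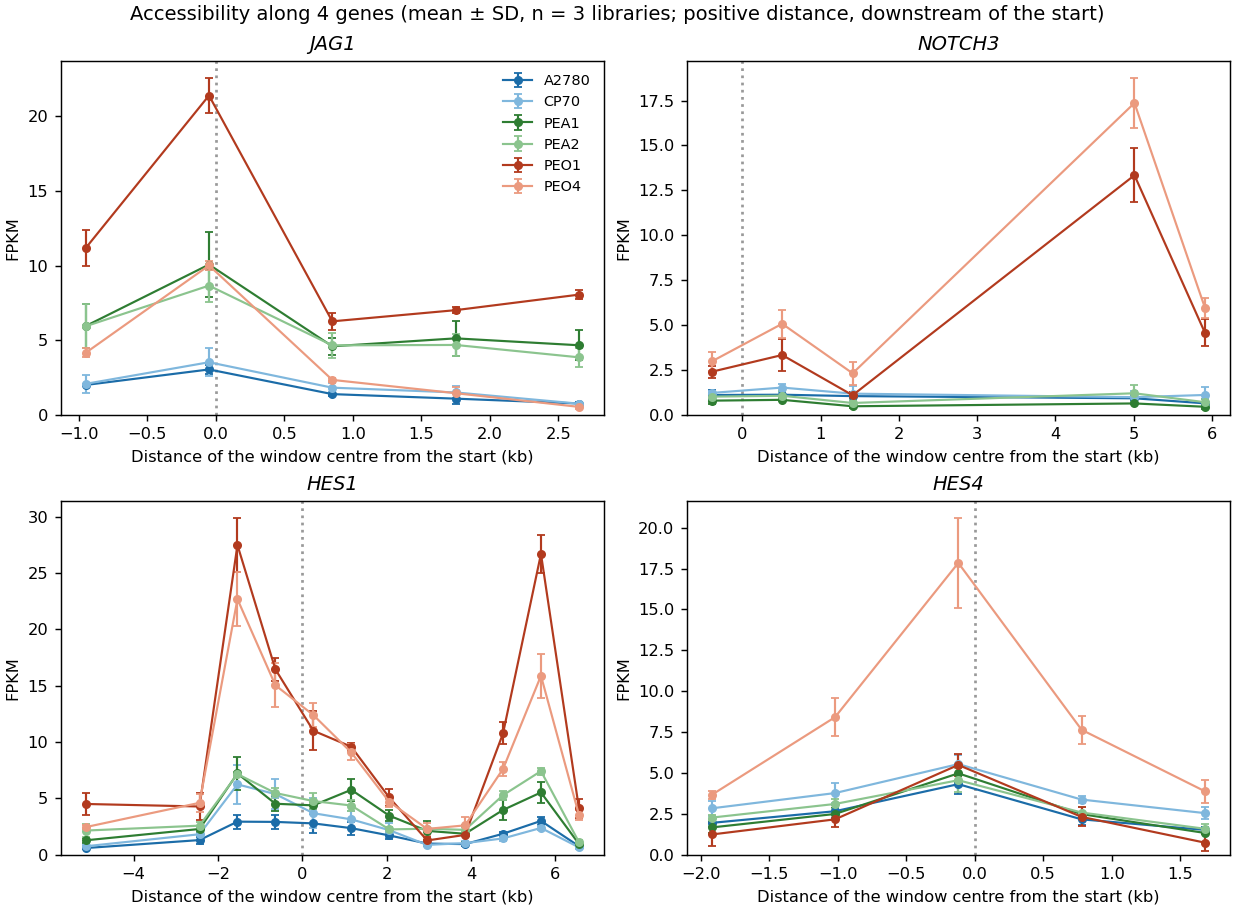
The 4 panels show FPKM on the y axis against the distance of the window centre from the start in kb for JAG1, NOTCH3, HES1 and HES4; points are line means and bars the SD of 3 libraries, and lines join the windows in the table. In JAG1 the PEO4 curve meets the A2780 and CP70 curves by 2.65 kb. NOTCH3 has its maximum 5.01 kb into the gene in the PEO lines. HES1 has maxima 1.54 kb before and 5.66 kb after its start. HES4 has its highest FPKM in PEO4 at every window, which does not hold by rank within the library.

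HES4, a relative of HES1, rose along its whole span in PEO4. The start window (chr1:935100-936100) read 4.67, 4.62 and 3.65 FPKM in A2780, 6.06, 4.91 and 5.65 in CP70, 5.61, 4.77 and 4.55 in PEA1, 3.79, 5.26 and 4.61 in PEA2, 5.06, 6.28 and 5.13 in PEO1, and 17.6, 20.7 and 15.2 in PEO4. In FPKM, PEO4 was separate from every other line, and the other 5 overlapped in order. By rank within the library it was not apart, at percentile 87.9 beside 90.5 in A2780 and 83.7 in CP70. PEA2 stood at 79.5, PEA1 at 79.4 and PEO1 at 37.4. The rise over PEO1 was 1.68 (SE 0.13, limma adjusted p = 3.88e-14), and 1.32 with the bin median of 0.36 (328 windows) removed. All 5 windows rose, by 1.68 to 2.48. The window 1.68 kb after the start (chr1:933300-934300), just downstream of the gene, was called: it read 0.202, 0.785 and 1.23 FPKM in PEO1, from 2, 9 and 11 reads, and 4.65, 3.65 and 3.34 in PEO4, a rise of 2.48 on the log2 scale (SE 0.32, adjusted p = 1.54e-08). Only PEO4 and CP70 had a library above 2 FPKM there. All libraries of both lines were above it, so either line alone would have brought this window into the table. Relative to the start window the difference was 0.80 and did not pass (exact two-sided permutation p = 0.3). The HES4 start window is also a promoter window of ISG15, an interferon-induced gene on the other strand, so the value belongs to both genes. In CP70 the windows 0.78 and 1.68 kb after the start rose by 0.63 and 0.71 (limma adjusted p = 0.0443 and 0.0178). The first no longer passed without any 1 of 5 of the 6 libraries, all but CP70 replicate 1 (adjusted p from 0.0727 to 0.210), nor the second without A2780 replicate 2 (0.0584) or 3 (0.106). After median centring the values were 0.050 and 0.13, and neither passed. In PEA2 none of 5 passed.

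HEY1 had the highest mean of the 9 start windows in 5 of the 6 lines, PEA2 being the exception, where JAG1 was higher. It read 5.23, 6.85 and 5.06 FPKM in A2780, 12.2, 7.96 and 5.61 in CP70, 14.1, 14.98 and 9.06 in PEA1, 6.54, 5.09 and 5.55 in PEA2, 23.6, 21.5 and 22.2 in PEO1, and 34.2, 36.6 and 32.1 in PEO4. In FPKM, PEO4, PEO1 and PEA1 followed each other with no overlap, and PEA1, CP70, PEA2 and A2780 each overlapped the next. By rank within the library the order was another, with PEA1 at percentile 99.7, PEO4 at 98.5, A2780 at 96.6 and PEO1 at 93.2. The start fell by 1.11 in PEA2 (SE 0.24, limma adjusted p = 8.26e-06), with 4 of the 5 windows tested lower, and rose by 0.61 in PEO4 (SE 0.09, adjusted p = 2.69e-07). In CP70 the value was 0.52 (adjusted p = 0.156). The bin around HEY1 moved little, with medians of 0.08 in PEA2 and 0.09 in PEO4. A window 7.10 kb after the start, downstream of the gene, moved against the promoter in PEO4 and was called. It read 1.92, 2.36 and 2.01 FPKM in PEO1 and 0.349, 0.384 and 0.598 in PEO4 (6, 8 and 12 reads), a log2 fold change of -2.04. No line other than PEO1 had a library above 2 FPKM there, so the window entered the table through PEO1 and its fall from PEO1 is given as a description. Relative to the start window the difference was -2.65 in the PEO pair, also given as a description. It was 1.54 in the PEA pair (exact two-sided permutation p = 0.1, the smallest possible, on a ratio chosen after the values were seen). There the window had means of 0.618 FPKM in PEA1 and 0.867 in PEA2, too low to be tested, and the start itself fell by 1.11.

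HEY2 had the widest range of line means of any start window, 3.17 on the log2 scale. The window (chr6:126070200-126071200) read 1.67, 2.03 and 1.57 FPKM in A2780, 9.17, 5.99 and 5.65 in CP70, 2.66, 3.74 and 2.25 in PEA1, 2.47, 1.73 and 1.73 in PEA2, 13.7, 17.8 and 18.4 in PEO1, and 14.2, 16.8 and 15.5 in PEO4. By rank within the library, CP70 stood at percentile 91.7, PEO1 at 84.6 and PEO4 at 83.6. In FPKM, CP70 was separate from the PEO lines above it and from the other 3 lines below it. Its rise over A2780 was 1.90 (SE 0.29, limma adjusted p = 3.08e-09), the largest of any NOTCH window in that pair, and the windows 0.98 and 1.88 kb before the start rose by 1.66 and 1.65. All 3 still passed after median centring, at 1.32, 1.08 and 1.072. The bin around HEY2 had a median of 1.55 in CP70 over 31 windows, and with it removed the start changed by 0.34. In PEA2 the start had a log2 fold change of -0.51 (limma adjusted p = 0.0443), which no longer passed without PEA1 replicate 1 (adjusted p = 0.079), PEA1 replicate 2 (-0.31, 0.312), PEA2 replicate 2 (0.139) or PEA2 replicate 3 (0.189). In PEO4 the start did not pass (-0.09, limma adjusted p = 0.495). There 3 other windows fell, by 0.72, 0.68 and 0.70, beside a bin median of -0.65 over 132 windows. Those 2.78 kb before and 0.82 kb after the start, with falls of 0.72 and 0.70, had libraries above 2 FPKM in PEO1 alone. They entered the table through the line they fell from, so their falls are given as a description. The start windows most like that of HEY2 over the 18 libraries, by Pearson's r of log2 values among 12714, were ASF1A (r = 0.990) and CEP85L (r = 0.989). Both are on chromosome 6, 6.86 and 7.10 Mb from HEY2, and the libraries share line, depth and share of reads in windows.

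The change of one pair was then tested against that of another in limma. The A2780 and PEA pairs differed by over 2 on the log2 scale, with an adjusted p under 0.001, in 3 of 54 windows, beside 12.8% of all windows: the start windows of NOTCH2 and HEY2 and the NOTCH1 window at 25.50 kb. The A2780 and PEO pairs differed in 5 of 58, beside 8.12%, which were 3 windows of HEY2 and the JAG1 windows at 1.75 and 2.65 kb. The PEA and PEO pairs differed in 5 of 58, beside 26.6%: the same JAG1 windows, HES4 at 1.68 kb, HEY1 at 7.10 kb and NOTCH1 at 25.50 kb. Those at NOTCH1 and HEY1 are in the table only through PEA1 and PEO1. The HEY2 window 0.82 kb after the start likewise had libraries above 2 FPKM in PEO1 alone. Its difference is therefore in part fixed by that choice. Over the 3 pairs together, with the 6 line means as data and the pair as a block, 0 of 58 windows were called (0 of all windows, or 0%). At an unadjusted p under 0.05 there were 2, JAG1 at 2.65 kb (-1.34, unadjusted p = 0.0161) and HES4 at 1.68 kb (1.14), each with an adjusted p of 1.00 by limma. Treating the 18 libraries as replicates called 0 member windows, beside 3 of all 74141 windows tested. Libraries of 1 line are not replicates of a platinum state, so this adds nothing to the fit on line means.

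The other genes of the pathway were read at their start windows, of which 43 of 53 were in the table. In CP70, 19 of 41 tested were higher and 0 lower, beside 43.8% and 1.49% of all start windows. ADAM10, which makes the first cut in a bound receptor, rose from 3.48 to 7.37 FPKM (log2 fold change 1.01, limma adjusted p = 0.00495), and DTX4, a ubiquitin ligase of the Deltex family, rose from 2.92 to 5.70 (0.95). In PEA2, 4 of 42 were higher and 18 lower, beside 17.6% and 35.8%. There 6 of the 7 genes of receptor regulation and turnover and 5 of the 9 corepressors were lower. FBXW7, which marks the intracellular domain for destruction, fell from 4.21 to 1.22 FPKM (-1.71, adjusted p = 1.54e-12), and ADAM10 fell from 6.13 to 2.24 (-1.40, adjusted p = 3.09e-09). In PEO4, 12 of 41 were higher and 4 lower, beside 26.4% and 30.9%, and 1 was called, beside 1.07% of all start windows: HEYL, a relative of HEY1 and HEY2, rose from 0.803 to 3.83 FPKM (2.13, SE 0.23, adjusted p = 3.55e-10). HES6 rose too, from 11.7 to 21.0 FPKM (0.85). ADAM10 fell in PEO4, by 0.62 (adjusted p = 6.05e-07).

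In sequence, the member windows were richer in G and C than the table. The median GC content was 66.53% in the 15 promoter windows and 62.74% in the 46 distal ones, against 50.45% over all windows. Of the distal windows 20, or 43.48%, were CpG-rich (GC above 50% and an observed to expected CpG ratio above 0.6), against 23.34% of all windows. AP-1 matches were in 9 of the 46 distal windows (19.57%), against 38.31% of the table, E-box matches in 12 (26.09%), against 14.94%, and RBPJ core matches in 26 (56.52%), against 61.75%. The JAG1 and NOTCH3 intron windows and the HES1 downstream window shown above are among the 9 with an AP-1 match.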

How the data were processed

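ATAC-seq was analysed in 18 libraries of 6 established ovarian cancer cell lines, 3 libraries per line. The deposited values are FPKM in 1001 bp windows of hg19. The authors removed duplicates with Picard, aligned paired reads with Bowtie2 and kept unique alignments, removed blacklisted and mitochondrial reads, counted reads per window with featureCounts and scaled them to the library with edgeR's rpkm function. Tool versions were not given in the sources used here, nor was a shift of reads to the cut site. The table holds 89428 windows, each above 2 FPKM in at least 2 libraries, so closed windows are absent and the shares of changed windows apply to this selection. Gene spans and canonical starts came from GENCODE release 44 on GRCh37.

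The values were whole multiples of 1 read per library (100% within 0.02 reads), which gave the library totals. The main test was limma 3.58.1 (R 4.3.3) on log2(FPKM + 0.1), with a mean-variance trend in place of the study's voom weights, over all windows with a mean above 1 FPKM, and Benjamini-Hochberg adjustment over all of them. Fold changes on this scale understate those of low windows. As an alternative chosen after the values were seen, limma's voom weights were used on the recovered reads and gave 356, 9688 and 7516 called windows against 296, 8374 and 6594. The edgeR test planned as an alternative was not run, and the voom fit stands in its place. Each fit was tested on simulated data with known changes. For the 5 Mb alternative, the median change of a window's bin was subtracted where the bin held at least 20 tested windows. Counting error limits each value: the median window held 11 to 47 reads, depending on the library.

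Windows named in the text are the start window of each member, its highest distal window and those called in a pair, and others are named with a note. The members and gene lists were chosen with earlier results of these data known. Replicates were compared with a chi-square test over windows, and no 2 libraries agreed within sampling noise. Replicate numbers did not pair the lines. Figures were drawn with matplotlib 3.10.9.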

Additional observations from a re-analysis of the deposited data

Results flagged for a closer look

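In 13 cases the change of a NOTCH window in 1 pair differed from its change in another pair by more than 2 on the log2(FPKM + 0.1) scale, by limma's test of the difference with an adjusted p under 0.001 over all windows. Each value below is the resistant minus sensitive change of the second pair less that of the first.

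Between the A2780 and PEA pairs the difference was -2.02 (SE 0.39, adjusted p = 5.70e-06 by limma) at the NOTCH2 start window, -2.40 (SE 0.34, adjusted p = 1.68e-09) at the HEY2 start window and -2.24 (SE 0.37, adjusted p = 1.53e-07) at NOTCH1 +25.50 kb. The NOTCH2 start fell in PEA2 and the HEY2 start rose in CP70, while the HEY2 value in PEA2 (-0.51) no longer passed without any 1 of 4 of the 6 libraries.

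Between the A2780 and PEO pairs it was -2.33 (SE 0.34, adjusted p = 1.27e-06 by limma) 1.88 kb before the HEY2 start, -2.00 (SE 0.31, adjusted p = 2.45e-06) 0.98 kb before it and -2.19 (SE 0.34, adjusted p = 3.69e-06) 0.82 kb after it. The HEY2 window after the start had means of 0.368 FPKM in A2780, 1.19 in CP70, 2.86 in PEO1 and 1.73 in PEO4. Only PEO1 had a library above 2 FPKM there, so this difference is in part fixed by how the window entered the table. In JAG1 the difference was -3.71 (SE 0.33, adjusted p = 9.67e-11) at +2.65 kb and -2.69 (SE 0.34, adjusted p = 8.72e-08) at +1.75 kb.

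Between the PEA and PEO pairs the JAG1 windows differed by -3.47 (SE 0.29, adjusted p = 2.50e-14 by limma) at +2.65 kb and -2.13 (SE 0.28, adjusted p = 1.04e-08) at +1.75 kb. The other differences were 2.25 (SE 0.42, adjusted p = 9.75e-06) at HES4 +1.68 kb, -2.46 (SE 0.41, adjusted p = 1.18e-06) at HEY1 +7.10 kb and 2.18 (SE 0.48, adjusted p = 9.66e-05) at NOTCH1 +25.50 kb. NOTCH1 +25.50 kb had 2 to 6 reads in each PEO library. NOTCH1 +25.50 kb and HEY1 +7.10 kb entered the table only through PEA1 and PEO1, so their differences are in part fixed by that choice.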

How the results depend on the processing

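What depth limits is the low windows: with a mean above 5 FPKM required, the counts of member windows called became 0 in PEA2, 0 in PEO4 and 0 in each of the 3 differences between pairs, and 13 of the 6-line call, because fewer windows were tested. Higher and lower windows then numbered 6 and 7 in PEO4, 0 and 1 in PEA2, and 0 higher in CP70. A pseudocount of 1 left 0 called in PEA2 and 1 in PEO4, 0, 1 and 1 in the differences, and 12 among the 6 lines. The study's upper limit on depth left 14 higher in CP70. With 1 estimate of spread over all 18 libraries, 9 windows were higher in PEO4. Other counts of calls under these settings stayed within 1.5 times the reported ones, and voom weights on recovered reads, chosen after the data were seen, changed no count by more than that. They moved the NOTCH1 start in CP70 past the test (0.64, adjusted p = 0.0434 by limma). The planned edgeR test was not run.

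The scaling moved the counts as well. Median centring gave 29 higher and 8 lower in PEO4, 0 and 26 in PEA2, 5 and 3 in CP70, and 12 called between the PEA and PEO pairs. Quantile normalization gave 6 higher and 4 lower in CP70, 4 called and 26 lower in PEA2, and 27 higher in PEO4. Removing the 5 Mb bin median left 0 higher in CP70, 0 called, 4 higher and 30 lower in PEA2, and 3 lower in PEO4. Of the 26 lower in PEA2 after centring, 13 are the 13 reported, and of the 30 after bin removal 11 are. The cause was not tested.

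Leaving out 1 library gave 0 to 1 called (1 without CP70 replicate 3), 10 to 25 higher (10 without A2780 replicate 3) and 0 lower in CP70, 0 to 1 called (0 without PEA1 replicate 1), 1 to 4 higher and 7 to 17 lower (7 without PEA1 replicate 1) in PEA2, and 3 to 5 called in PEO4. The replicate numbers gave correlations of deviations from -0.41 to 0.04 between same-numbered libraries, so they do not pair the lines. With the replicate block 25 windows were still higher in CP70, no count of calls changed by over 1.5 times, and the HES4 window at +0.78 kb in CP70 (0.63, adjusted p = 0.069 by limma) and the HEY2 start in PEA2 (-0.51, adjusted p = 0.0664) no longer passed.

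In PEO4 signs also turned in windows that had passed the test. Elsewhere they turned in values that had not passed. In CP70 these were, after median centring, -0.42 at the NOTCH3 start, -0.40 at JAG1, -0.20 at HES1, -0.22 at HES4 and -0.056 at HEY1, and -0.21 at JAG1 +0.85 kb, -0.13 at JAG1 +1.75 kb and -0.30 at HEY1 +2.60 kb. After quantile normalization they were -0.31 at the NOTCH3 start, -0.43 at JAG1, -0.23 at HES1, -0.24 at HES4 and -0.083 at HEY1, and -0.18 at JAG1 +0.85 kb and -0.30 at HEY1 +2.60 kb. After bin removal they were -0.013 at the NOTCH1 start, -0.71 at NOTCH3, -0.014 at JAG1, -0.24 at HES4 and -0.23 at HEY1 +2.60 kb.

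In PEA2, centring gave -0.26 at the HES1 start, -0.36 at HES1 1.54 kb before it, -0.36 at JAG1 +0.85 kb, and -0.32 and -0.15 at HES4 +0.78 and +1.68 kb. Quantile normalization gave -0.11 at HES1 1.54 kb before the start, -0.10 at JAG1 +0.85 kb, and -0.21 and -0.32 at the HES4 windows. Bin removal gave -0.996 at the HES1 start, -1.10 at HES1 1.54 kb before it, -1.12 at JAG1 +0.85 kb, and -0.66 and -0.49 at the HES4 windows.

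In PEO4, centring gave 0.17 at the NOTCH1 start, 0.26 at HEY2, 0.066 at HES1 1.54 kb before the start, 0.23 at JAG2 +0.71 kb and 0.34 at NOTCH2 +0.98 kb. Quantile normalization gave 0.051 at the NOTCH1 start, 0.11 at JAG2 +0.71 kb and 0.35 at NOTCH2 +0.98 kb. Bin removal gave -0.12 at the NOTCH3 start, 0.44 at JAG1, 0.56 at HEY2 and 0.65 at HES1 1.54 kb before the start. It also gave -0.035 at NOTCH3 +5.01 kb, 0.15 at JAG1 +0.85 kb and 0.27 at NOTCH2 +0.98 kb. Before bin removal the JAG1 start (-1.09), JAG1 +0.85 kb (-1.39), HES1 1.54 kb before the start (-0.28) and NOTCH3 +5.01 kb (0.38) had passed.

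Without 1 library, the sign also turned at the NOTCH3 start in CP70 (-0.051 to 0.28), in PEA2 at the HES1 start (-0.0012 to 0.18), at HES1 1.54 kb before it (-0.17 to 0.10), at HES4 +0.78 kb (-0.034 to 0.14), at JAG1 +0.85 kb (-0.11 to 0.13) and at JAG1 +1.75 kb (-0.31 to 0.023), and in PEO4 at JAG2 +0.71 kb (-0.22 to 0.037) and NOTCH2 +0.98 kb (-0.076 to 0.081). None of these had passed the test. Of the gene means, 51 moved by more than 1 SD and 285 did not when the span was extended by 5 or 20 kb or a promoter was taken by any overlap.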
